A study of Homo sapiens with 4 samples.

Results

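The Wnt genes described here are the ligands, receptors, secreted antagonists and effectors of Wnt signalling, read in LX-2, a long-used cell line made from human hepatic stellate cells (HSCs). The members were chosen by gene name and not by their measured values, though with earlier results of these data known, as the protein-coding genes of the WNT, FZD, SFRP and DKK families and 20 further receptors, modulators and effectors, which gave 57 genes among the 63677 genes of the count table. Cells of both groups were transfected at 20 nM and given rhTGF-β1, the recombinant form of a cytokine that drives fibrosis, at 5 ng/mL, and RNA was taken 24 h later. The first group received a mimic of the microRNA miR-6133-5p and the second a negative control mimic (miControl), with 2 libraries per group. No library here came from cells without rhTGF-β1, from untransfected cells or from cells other than LX-2, so all values below hold for this line under both agents. The study asked by which genes miR-6133-5p lowers the fibrotic activity of HSCs.

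Wnt proteins are secreted lipid-modified ligands that bind frizzled (FZD) receptors on the cell surface. In the canonical branch, a frizzled receptor with an LRP5 or LRP6 coreceptor stops the destruction of β-catenin, which then joins TCF/LEF factors and BCL9 proteins on DNA and activates genes. In the other branches, ligands such as WNT5A act through frizzled, ROR and RYK receptors on cell shape and movement. Secreted SFRP proteins hold ligands back, and DKK proteins such as DKK1 hold back the LRP5 and LRP6 coreceptors of the canonical branch. Wnt signalling is known to take part in the activation of HSCs and in liver fibrosis.

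A total of 38 of the 57 Wnt genes had enough counts to be tested. Under miR-6133-5p, 10 of them fell and 1 rose (11 called, where all tested genes had 8.44% called), with a change called at an adjusted p below 0.01 together with a log2 fold change beyond 0.8 in edgeR's quasi-likelihood test, adjusted over 18252 genes. The genes that fell made up 26.3% of the tested Wnt genes against 5.54% of all tested genes, and the gene that rose made up 2.63% against 2.9%. The 10 genes were the TCF/LEF factor genes *LEF1* and *TCF7L1*, both BCL9 genes (*BCL9* and *BCL9L*), the receptor genes *FZD8* and *FZD1*, the ligand genes *WNT5A*, *WNT9A* and *WNT7A*, and the antagonist gene *SFRP1*, and the gene that rose was *DKK3*. The median log2 fold change was −0.13 over the tested Wnt genes and 0.03 over all tested genes. The β-catenin gene *CTNNB1*, the coreceptor genes *LRP5* and *LRP6*, and the secretion genes *PORCN* and *WLS* did not pass the test.

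Library totals ran from 51862006 to 93811213 counts, and 1 count corresponded to 0.0101 to 0.0203 CPM, the count scaled to a common library total, here with TMM factors between 0.941 and 1.06. The mates of a read pair appeared to have been counted apart, as each uniquely mapped pair gave 1.68 to 1.70 counts. Of 15 markers of stellate cells and fibroblasts, 8 lay above 1 CPM in every library, whereas *LRAT*, *DES*, *HAND2*, *DCN*, *LUM* and *THY1* lay below 1 CPM in all of them. The summed level of these 15 markers was 8548 to 9119 CPM with miControl and 5730 to 6353 CPM with miR-6133-5p. *COL1A1* (3110.0 and 2722 CPM against 994 and 1132) and *SPARC* (3675 and 3600 CPM against 2877 and 2621) made up most of this difference, while *TIMP1* was at 199 and 185 CPM against 279 and 235, and *VIM* and *PDGFRB* overlapped between the groups. The hepatocyte, endothelial and leukocyte lists summed to at most 11.02 CPM in any library, with *HNF4A*, *TTR*, *CLEC4G*, *LYVE1*, *CD163* and *CD3E* at 0 throughout. The 5 cholangiocyte markers summed to 83.8 to 85.3 CPM with miControl and to 36.8 to 39.9 CPM with miR-6133-5p, and *CFTR* was at 0. Nearly all of that sum was *SOX9*, at 80.1 and 80.7 CPM against 33.1 and 29.5, whereas *KRT7* was at 3.62 and 4.44 CPM against 6.60 and 7.08. The part of these marker levels in the Wnt results was not tested, and in RNA from whole cultures fewer cells of a kind and less RNA per cell cannot be told apart. The labels do not say that the 2 libraries of a group came from separate cultures, so the p-values measure the spread between these libraries, which may be technical, and groups of this size allow no exact permutation test below p = 0.333.

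**Figure D1:**
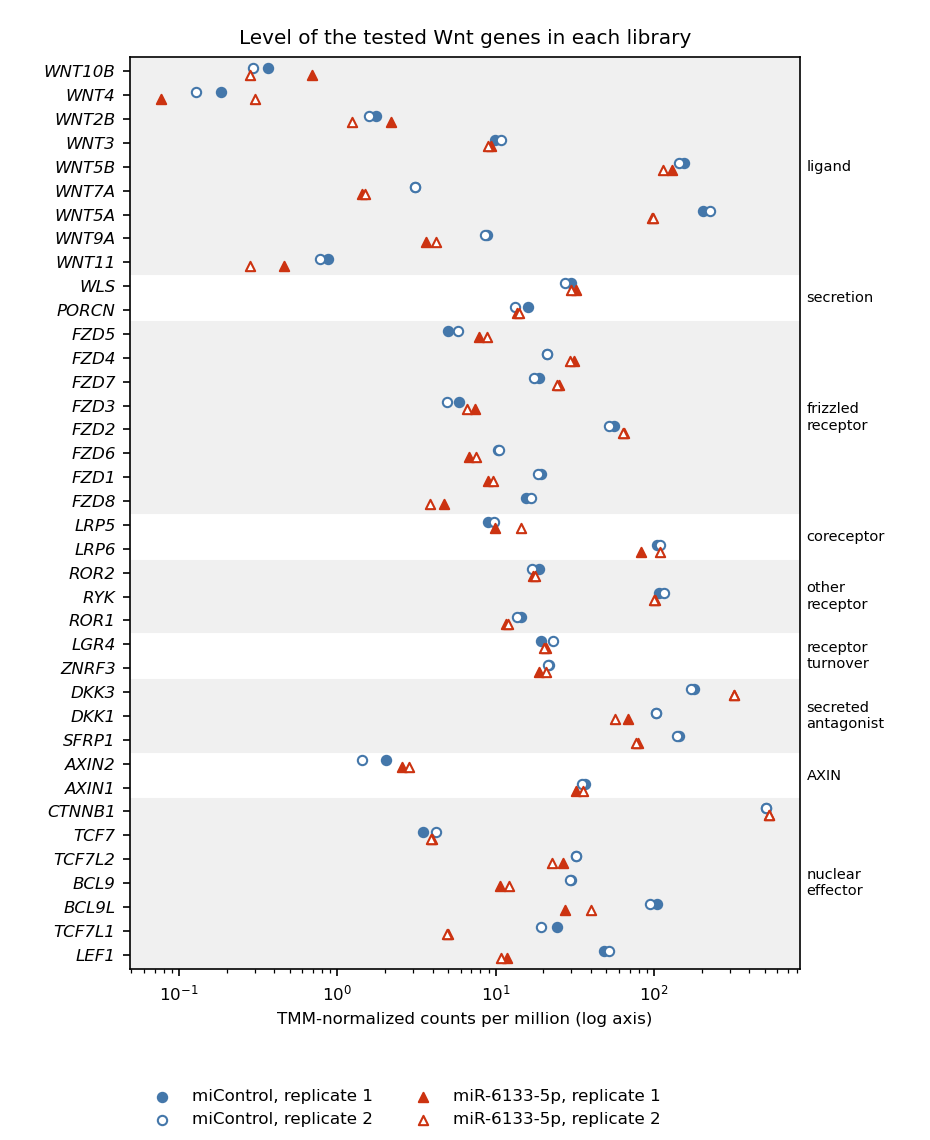
Level of each tested Wnt gene in each library, in TMM-normalized CPM on a log axis, with circles for miControl, triangles for miR-6133-5p and filled symbols for replicate 1. *LEF1* lay at 48.0 and 52.0 CPM with miControl and at 11.8 and 10.8 CPM with miR-6133-5p, while *CTNNB1* lay between 507 and 535 CPM in all 4 libraries.

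The sequences were examined first, since miRNAs act by pairing with the 3′-untranslated regions (3′-UTRs) of mRNAs. The mature sequence of miR-6133-5p was not analysed here, so the hairpin of the *MIR6133* gene from RefSeq (108 bases, GRCh38.p14, chr7:133290881-133290988, plus strand) was used, without saying which of its bases the mimic holds. Each of its 102 windows of 7 bases was compared, as its reverse complement, with the 3′-UTRs of the 13310 tested genes that are not Wnt genes and have one in the annotation. The window GAGGGAG at bases 72 to 78 stood lowest: the 2842 genes with its reverse complement, CTCCCTC, had a mean log2 fold change of −0.22 against 0.06 for the genes without it. For every one of the 102 windows the genes with a match had the lower mean. The difference, with minus without, ran from −0.28 for GAGGGAG to −0.07. The window GAGGGAG was thus chosen from the measured values of other genes after these were known. A stretch of the hairpin, bases 61 to 90, is shown with that window in capitals.
*MIR6133* hairpin: ucuucauguguGAGGGAGgagguuggguau

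The sequence CTCCCTC was then looked for, on the sense strand only, in the 3′-UTRs of the Wnt genes. It was present in 14 of the 38 tested Wnt genes, 36.8%, and in 2856 of 13348 tested genes with an annotated 3′-UTR, 21.4%. Among the 11 genes that were called, the lower *TCF7L1*, *FZD8*, *BCL9L*, *WNT9A*, *WNT7A* and *FZD1* held it, as did *DKK3*, which rose. The lower *LEF1*, *BCL9*, *WNT5A* and *SFRP1* held none in the annotated 3′-UTR. Each match of the called genes is shown in 30 bases of mRNA sense from GRCh37, with CTCCCTC in capitals, to show where in these mRNAs the sequence stands. Every one lies in the exonic 3′-UTR of the gene's canonical transcript, *BCL9L* has a pair of them, and a match is a run of letters, not a proven site.
*TCF7L1*, chr2:85537106-85537135, plus strand: accagcgtcccCTCCCTCagtgggcccgaa
*FZD8*, chr10:35927870-35927899, minus strand: aacctctttttCTCCCTCgactcttcctac
*FZD1*, chr7:90896949-90896978, plus strand: gcagtctcagcCTCCCTCcacggtcacctt
*BCL9L*, chr11:118768670-118768699, minus strand: tggagctccacCTCCCTCttggtttctccg
*BCL9L*, chr11:118768410-118768439, minus strand: tcaagttattgCTCCCTCcattcccctgga
*WNT9A*, chr1:228108522-228108551, minus strand: gcctcagcttcCTCCCTCtgacccgagagc
*WNT7A*, chr3:13857917-13857946, minus strand: atccctgtgtcCTCCCTCactgtgggttcc
*DKK3*, chr11:11985644-11985673, minus strand: caatgtggagtCTCCCTCtgattggttttg

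The match in *TCF7L1* begins at base 532 of a 3′-UTR of 925 bases, counting from the base after the stop codon to the first capital, and that in *FZD8* begins at base 385 of 1098. In both *TCF7L1* and *WNT7A* the 7 bases are followed by an A. The median log2 fold change was −0.35 over the 14 Wnt genes with CTCCCTC and −0.09 over the 24 without it, and 6 of the 14 (42.9%) and 4 of the 24 (16.7%) fell. Over all tested genes with a 3′-UTR the medians were −0.16 with the sequence and 0.08 without it, and 14.1% and 4.53% fell. Nearly all of these genes had served to choose the sequence for low fold changes. Their difference thus follows from that choice and is no support for the sequence. Genes with the sequence also had longer 3′-UTRs, with a median of 2527 bases against 1057 over all genes and 2201.5 against 1385 in the Wnt genes, and the part of length was not tested. The sequence was also present in *FZD5*, *FZD3*, *WNT4* and *WNT10B*, whose log2 fold changes lay between 0.36 and 0.63. Of these, only *FZD5* had an adjusted p below 0.01 in edgeR, and *WNT4* and *WNT10B* lay below about 1 CPM with overlapping groups. It was present as well in *TCF7L2*, *WNT5B* and *WNT3*, whose log2 fold changes lay between −0.40 and −0.18. With *DKK3* and *FZD5* higher, its presence did not fix the direction among the Wnt genes. Among the Wnt genes the difference also varied with the match. Over the 8 Wnt genes with the last 6 bases followed by an A the median was 0.13 and 25.0% fell, against −0.15 and 26.7% over the 30 without it. Over all tested genes with a 3′-UTR, the medians for that match were −0.15 with it and 0.06 without it, and 13.3% and 5.41% fell. Over the 5 Wnt genes with CTCCCTC followed by an A the median was −0.18 and 40.0% fell, against −0.12 and 24.2% over the 33 without it.

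**Figure D2:**
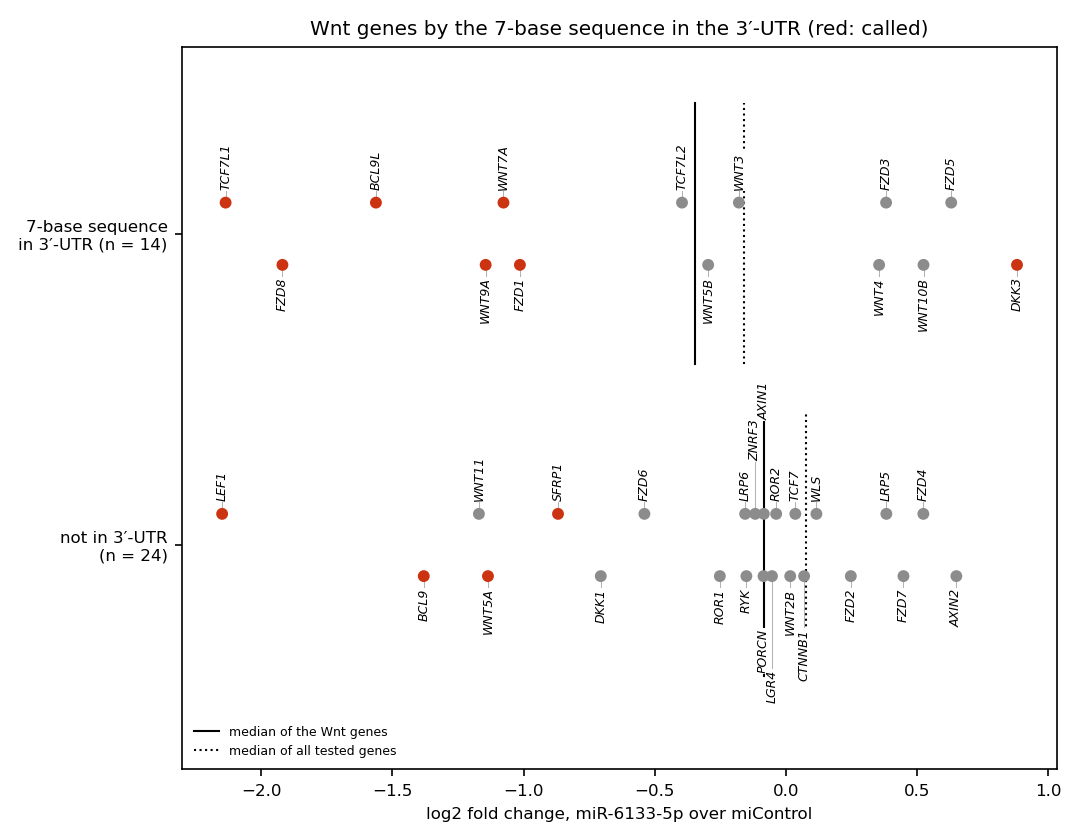
Log2 fold change of the 38 tested Wnt genes, split by whether the 3′-UTR holds the 7-base sequence, with called genes in red, a solid line at the median of the Wnt genes and a dotted line at the median of all tested genes of that row. The 14 genes with the sequence ran from *TCF7L1* at −2.14 to *DKK3* at 0.88, with a median of −0.35, and the 24 genes without it had a median of −0.09. The vertical place of the points within a row has no meaning.

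The largest falls were found in the genes that act in the nucleus, where 4 of 7 fell, beside 5.54% of all tested genes. *LEF1* (ENSG00000138795, chr4:108968701-109090112), which encodes a factor that binds DNA together with β-catenin, was at 48.0 and 52.0 CPM in the miControl libraries and at 11.8 and 10.8 CPM in the miR-6133-5p libraries. The groups were far apart, at 50.02 ± 2.80 against 11.3 ± 0.724 CPM (SD, n = 2), and the log2 fold change was −2.15 with a standard error of 0.115 (edgeR, adjusted p = 5.63e-08). *TCF7L1* (ENSG00000152284, chr2:85360515-85537510), which encodes the TCF/LEF factor known mostly as a repressor, was at 24.2 and 19.3 CPM with miControl and at 4.98 and 4.92 CPM with miR-6133-5p. The change was −2.14 ± 0.142 on the log2 scale (standard error, edgeR, adjusted p = 2.8e-07), and the level with miR-6133-5p was 22.7% of that with miControl, close to the 22.6% of *LEF1*.

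The other TCF/LEF genes did not pass the test. *TCF7L2*, a TCF/LEF factor found in many tissues, was at 32.1 and 32.2 CPM with miControl and at 26.4 and 22.5 CPM with miR-6133-5p. These groups did not overlap, but the log2 fold change of −0.40 had an adjusted p of 0.0189 in edgeR. *TCF7* was at 3.46 and 4.20 CPM with miControl and at 3.96 and 3.90 CPM with miR-6133-5p, so the miR-6133-5p libraries lay within the range of the control libraries (log2 fold change 0.04, 95% interval −0.35 to 0.42, adjusted p = 0.911).

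Levels were set side by side within the family after division by the length of each gene's exons, in CPM per kilobase, and these levels and shares are described without a test. Summed over the 4 TCF/LEF genes, the level per kilobase was 19.4 ± 0.198 with miControl and 7.25 ± 0.558 with miR-6133-5p (SD, n = 2). *LEF1* made up 48.1 ± 3.19% of this sum with miControl and 29.1 ± 0.375% with miR-6133-5p, and *TCF7L1* 25.3 ± 3.78% and 15.5 ± 1.05%. *TCF7L2* made up 24.6 ± 0.306% and 50.1 ± 1.78%, so the leading TCF/LEF transcript was that of *LEF1* in both miControl libraries and that of *TCF7L2* in both miR-6133-5p libraries. *TCF7* stayed the least abundant of the 4, at 1.96 ± 0.289% and 5.39 ± 0.359%.

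*BCL9* and *BCL9L* encode the adaptors that link β-catenin to the PYGO proteins, and both fell. *BCL9L* (ENSG00000186174, chr11:118764584-118796635) was at 104 and 94.9 CPM with miControl and at 27.2 and 39.9 CPM with miR-6133-5p, and the change was −1.56 ± 0.151 on the log2 scale (standard error, edgeR, adjusted p = 5.95e-06). The miR-6133-5p libraries differed from each other more than the control libraries did, and both lay below them. The strand setting of the counting is not given in the sources used here, and 37.5% of the exon bases of *BCL9L* overlap genes on the opposite strand, so reads of those genes may be among its counts. *BCL9L* was also 1 of the predicted target genes that the study picked from these libraries for being lower, so its fall is not independent evidence. *BCL9* (ENSG00000116128, chr1:147013271-147098017) was at 30.03 and 29.2 CPM with miControl and at 10.6 and 12.1 CPM with miR-6133-5p, with no such overlap on the opposite strand. Its log2 fold change was −1.38 ± 0.119 (standard error, edgeR, adjusted p = 2.17e-06), and the summed level of both genes per kilobase was 13.9 ± 0.671 with miControl and 4.90 ± 0.999 with miR-6133-5p (SD, n = 2).

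*CTNNB1*, which encodes β-catenin, the protein these factors and adaptors bind, was at 43.2 ± 0.139 CPM per kilobase with miControl, second to *DKK1* at 46.1 ± 0.109, and at 45.4 ± 0.145 with miR-6133-5p, the highest of the Wnt genes (SD, n = 2). Before division by length it was at 509.7 and 507 CPM with miControl and at 532 and 535 CPM with miR-6133-5p. Both miR-6133-5p libraries lay above both control libraries by a small margin, and the log2 fold change of 0.07 did not pass the test (95% interval −0.15 to 0.28, edgeR, adjusted p = 0.657). The interval excludes the threshold of 0.8 in both directions. RNA levels say nothing on the amount or place of the β-catenin protein, which the canonical branch controls.

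**Figure D3:**
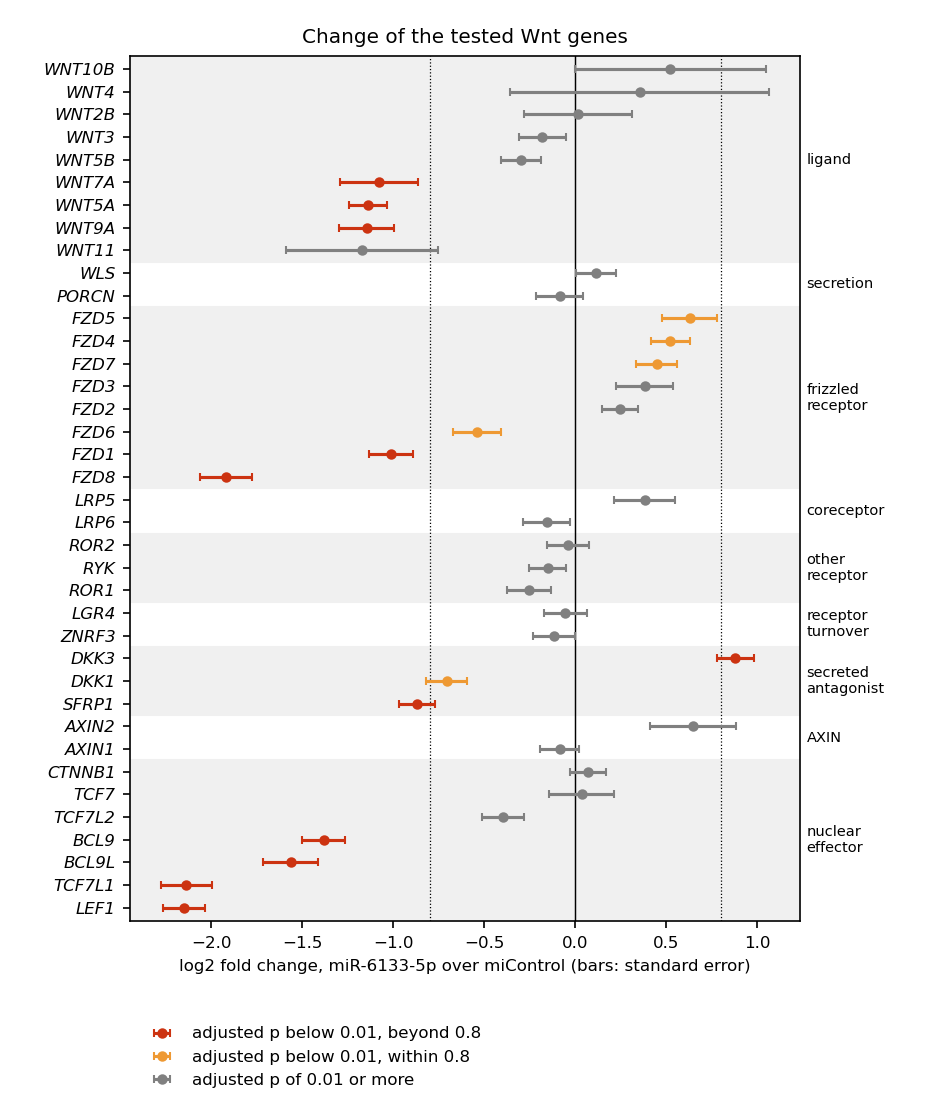
Log2 fold change of each tested Wnt gene, miR-6133-5p over miControl, with bars for 1 standard error, grouped by role. Dotted lines mark 0.8 in both directions. *LEF1* and *TCF7L1* lie lowest at −2.15 and −2.14, the frizzled genes spread from −1.92 for *FZD8* to 0.63 for *FZD5*, and *DKK3* lies highest at 0.88.

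Among the frizzled receptors, 2 fell and none was called higher (0 by edgeR and 0 by DESeq2). Of all tested genes, 5.54% fell and 2.9% rose in edgeR. Of the 8 tested frizzled genes, *FZD8* and *FZD1* fell, *FZD6* had an adjusted p below 0.01 with a decrease short of 0.8, and *FZD7*, *FZD4* and *FZD5* had an adjusted p below 0.01 with an increase short of 0.8. *FZD8* (ENSG00000177283, chr10:35927175-35931224) was at 15.5 and 16.6 CPM with miControl and at 4.68 and 3.84 CPM with miR-6133-5p. The change was −1.92 ± 0.143 on the log2 scale (standard error, edgeR, adjusted p = 6.73e-07), the largest fall among the receptors. The gene is on a list of genes of the epithelial-to-mesenchymal transition that the study chose from these libraries for being lower, so its fall is not independent evidence. *FZD1* (ENSG00000157240, chr7:90893748-90900641) was at 19.3 and 18.4 CPM with miControl and at 8.97 and 9.66 CPM with miR-6133-5p (log2 fold change −1.01 ± 0.121, edgeR, adjusted p = 3.54e-05). *FZD6*, a receptor known mainly from planar cell polarity, was at 10.4 and 10.5 CPM with miControl and at 6.80 and 7.54 CPM with miR-6133-5p (log2 fold change −0.54, adjusted p = 0.00805).

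The increases were smaller than these falls, and 5 of the 8 frizzled genes had a positive log2 fold change at an unadjusted p below 0.05, beside 20% of all tested genes. *FZD4*, the receptor of norrin as well as of Wnt ligands, was at 21.0 and 21.1 CPM with miControl and at 31.2 and 29.4 CPM with miR-6133-5p (log2 fold change 0.52, edgeR, adjusted p = 0.00257), and 18.9% of its exon bases overlap *PRSS23* on the opposite strand. *FZD7* was at 18.9 and 17.4 CPM with miControl and at 25.0 and 24.4 CPM with miR-6133-5p (log2 fold change 0.45, adjusted p = 0.00871). *FZD5* was at 5.00 and 5.80 CPM with miControl and at 7.84 and 8.86 CPM with miR-6133-5p (log2 fold change 0.63, adjusted p = 0.00655). Leaving out either miControl library took the adjusted p of *FZD4*, *FZD5*, *FZD6* and *FZD7* above 0.01. Leaving out 1 of the miR-6133-5p libraries did so for *FZD5* (replicate 2), *FZD6* and *FZD7* (replicate 1). With each library left out in turn, log2 fold changes ran from 0.48 to 0.57 for *FZD4* and 0.52 to 0.72 for *FZD5*. They ran from −0.62 to −0.47 for *FZD6* and 0.36 to 0.50 for *FZD7*. With all 4 libraries, the adjusted p in edgeR was 0.0107 for *FZD7* with RLE factors and 0.0429 for *FZD6* with library totals alone. None of the 8 frizzled genes overlapped between the groups, with 3 lower and 5 higher, while 64.4% of all tested genes did not overlap. *FZD2*, with 54.1 ± 2.74 CPM against 64.2 ± 0.772 CPM (SD, n = 2), and *FZD3*, with 5.38 ± 0.648 against 7.01 ± 0.616 CPM, did not pass the test (adjusted p = 0.0829 and 0.0842).

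Summed per kilobase, the 8 frizzled genes were at 31.5 ± 0.787 with miControl and at 32.3 ± 0.372 with miR-6133-5p (SD, n = 2), and these ranges overlapped. *FZD2* was the most abundant frizzled transcript in every library, at 45.4 ± 1.17% of the sum with miControl and 52.5 ± 0.0272% with miR-6133-5p. The share of *FZD8* was 12.6 ± 0.921% and 3.25 ± 0.414%, and that of *FZD1* was 8.67 ± 0.0784% and 4.18 ± 0.265%. *FZD7*, at 12.5 ± 0.424% and 16.7 ± 0.128%, and *FZD4*, at 9.04 ± 0.268% and 12.7 ± 0.395%, took larger shares with miR-6133-5p in both libraries. With miControl, *FZD8* and *FZD7* could not be ordered beyond their spread, whereas with miR-6133-5p *FZD7* stood clearly above *FZD8*.

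**Figure D4:**
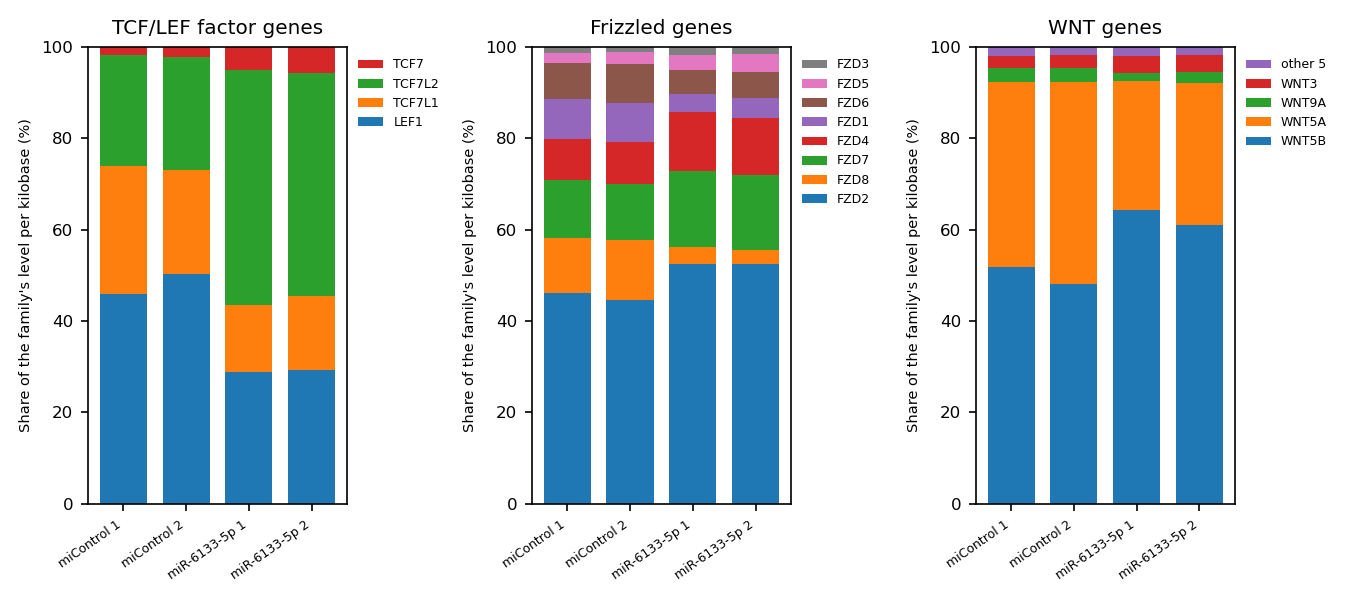
Share of each gene in the summed level per kilobase of its family, in percent, for each of the 4 libraries, with "other 5" for *WNT7A*, *WNT11*, *WNT2B*, *WNT10B* and *WNT4*. *LEF1* took 48.1% of the TCF/LEF sum with miControl and 29.1% with miR-6133-5p, *FZD8* 12.6% and 3.25% of the frizzled sum, and *WNT5A* 42.4% and 29.8% of the WNT sum.

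Of the 19 WNT genes, 9 were tested and 3 fell, beside 5.54% of all tested genes. *WNT5A* (ENSG00000114251, chr3:55499743-55524567), the best known ligand of the branches that do not use β-catenin, was at 204 and 224 CPM with miControl and at 96.7 and 98.0 CPM with miR-6133-5p. The change was −1.14 ± 0.105 on the log2 scale (standard error, edgeR, adjusted p = 3.87e-06), and its level with miR-6133-5p was 45.5% of that with miControl. *WNT5B*, its closest relative, was at 155 and 144 CPM with miControl and at 130.1 and 113 CPM with miR-6133-5p. The *WNT5B* groups did not overlap, but the log2 fold change of −0.30 did not pass the test (adjusted p = 0.0562).

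*WNT9A* (ENSG00000143816, chr1:228106357-228135633) was at 8.80 and 8.59 CPM with miControl and at 3.62 and 4.21 CPM with miR-6133-5p (log2 fold change −1.14 ± 0.152, edgeR, adjusted p = 8.99e-05). *WNT7A* (ENSG00000154764, chr3:13857755-13921568), a ligand known from limb and neural development, was at 3.11 and 3.10 CPM with miControl and at 1.44 and 1.502 CPM with miR-6133-5p (log2 fold change −1.08 ± 0.215, adjusted p = 0.00201). Per kilobase it was the least abundant of the called Wnt genes, at 0.686 ± 0.00145 with miControl (SD, n = 2), and its call was lost when either miControl library was left out, with adjusted p = 0.0275 without replicate 1 and 0.0244 without replicate 2. *WNT11* had a log2 fold change of −1.17 that did not pass the test, at 0.874 and 0.771 CPM with miControl and 0.459 and 0.282 CPM with miR-6133-5p (adjusted p = 0.0503). *WNT3* was at 10.3 ± 0.660 and 9.09 ± 0.309 CPM (SD, n = 2, adjusted p = 0.334), and *WNT2B*, *WNT4* and *WNT10B* were below 2.2 CPM in every library with overlapping groups.

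*WNT5A* and *WNT5B* together made up most of the ligand transcripts in every library. Summed per kilobase, the 9 ligand genes were at 70.6 ± 0.125 with miControl and at 45.8 ± 2.77 with miR-6133-5p (SD, n = 2). *WNT5B* made up 49.97 ± 2.74% of the sum with miControl and 62.6 ± 2.28% with miR-6133-5p, and *WNT5A* made up 42.4 ± 2.74% and 29.8 ± 2.09%. *WNT9A* made up 3.08 ± 0.0592% and 2.15 ± 0.358%, and *WNT3* 2.70 ± 0.169% and 3.68 ± 0.0977%.

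The genes of ligand secretion and of receptors other than the frizzled receptors showed no called change in RNA. Over the 11 tested genes of ligand secretion, coreceptors, ROR and RYK receptors, receptor turnover and AXIN, 0 were called by edgeR and 0 by DESeq2, and *AXIN2* and *LRP5* had an unadjusted p below 0.05, as had 40.3% of all tested genes. *PORCN*, the enzyme that attaches the lipid to Wnt ligands, was at 16.1 and 13.2 CPM with miControl and at 13.6 and 13.95 CPM with miR-6133-5p (log2 fold change −0.09, 95% interval −0.37 to 0.19). *WLS*, the carrier that takes ligands to the surface, was at 30.1 and 27.4 CPM with miControl and at 32.3 and 29.9 CPM with miR-6133-5p (log2 fold change 0.12, 95% interval −0.12 to 0.35). The groups overlapped for both genes.

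*LRP6* was at 104 and 109.6 CPM with miControl and at 82.1 and 109.7 CPM with miR-6133-5p, so that only replicate 1 of miR-6133-5p stood below the others (log2 fold change −0.16, edgeR, adjusted p = 0.41). *LRP5* was at 8.88 and 9.82 CPM with miControl and at 9.91 and 14.4 CPM with miR-6133-5p, where replicate 2 stood above the others (log2 fold change 0.38, adjusted p = 0.102). *LGR4*, the receptor of R-spondins, was at 19.4 and 23.1 CPM with miControl and at 20.9 and 20.1 CPM with miR-6133-5p (log2 fold change −0.05, adjusted p = 0.79). The log2 fold changes of *LRP6*, *LGR4* and *PORCN* turned positive with library totals in place of TMM, to 0.01, 0.11 and 0.08. *ZNRF3*, which removes frizzled receptors from the membrane, was at 21.5 ± 0.163 and 19.8 ± 1.56 CPM (SD, n = 2), and the receptor genes *RYK*, *ROR2* and *ROR1* had log2 fold changes of −0.15, −0.04 and −0.25 with adjusted p of 0.294, 0.85 and 0.137.

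*AXIN2* is both a brake on β-catenin and a gene that canonical Wnt signalling switches on. It was at 2.01 and 1.43 CPM with miControl and at 2.57 and 2.81 CPM with miR-6133-5p. Both miR-6133-5p libraries lay above both control libraries, and the log2 fold change of 0.65 did not pass the test (95% interval 0.14 to 1.16, edgeR, adjusted p = 0.0533). A further gene on the same strand overlaps 25.3% of the exon bases of *AXIN2*, so reads of that part cannot be assigned with certainty. *AXIN1*, which carries out the same task in the destruction complex, was at 36.0 ± 1.18 and 34.0 ± 2.49 CPM (SD, n = 2, adjusted p = 0.609).

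Only 3 of the 8 secreted antagonist genes were tested, and they did not move alike. *DKK3* (ENSG00000050165, chr11:11977754-12031316), which encodes the DKK protein that does not bind LRP coreceptors as the others do, was at 179 and 170.5 CPM with miControl and at 321 and 322 CPM with miR-6133-5p. It rose by 0.88 ± 0.102 on the log2 scale (standard error, edgeR, adjusted p = 2.71e-05), but 47.5% of its exon bases overlap *USP47* on the opposite strand. *SFRP1* (ENSG00000104332, chr8:41119481-41166992), which encodes a secreted protein that resembles the ligand-binding part of frizzled receptors, was at 143 and 140.4 CPM with miControl and at 78.8 and 76.3 CPM with miR-6133-5p. The change was −0.87 ± 0.101 on the log2 scale (standard error, edgeR, adjusted p = 2.84e-05), just beyond the threshold of 0.8, and it was −0.71 with library totals alone. *SFRP1* is on the same list of the study as *FZD8*. *DKK1*, an inhibitor that binds LRP5 and LRP6, was at 102 and 103 CPM with miControl and at 68.6 and 57.0 CPM with miR-6133-5p (log2 fold change −0.71, adjusted p = 0.000387), and without replicate 1 of miR-6133-5p it was called, at −0.85 with adjusted p = 1.44e-05. An antisense gene overlaps 10.2% of its exon bases.

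By level per kilobase, *DKK1* was the leading antagonist transcript with miControl, at 50.9 ± 0.565% of the sum over the 3 genes, followed by *SFRP1* at 33.0 ± 0.157% and *DKK3* at 16.1 ± 0.408% (SD, n = 2). With miR-6133-5p, *DKK1* was at 39.4 ± 2.95% and *DKK3* at 37.6 ± 2.18%, and these 2 could not be ordered beyond their spread. *SFRP1* was then at 22.9 ± 0.778%. The sum itself was 90.6 ± 0.791 with miControl and 71.6 ± 4.06 with miR-6133-5p.

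The other 19 Wnt genes did not have enough counts for the test, and 6 of them were at 0 in every library. They were *WNT1*, *WNT2*, *WNT3A*, *WNT6*, *WNT7B*, *WNT8A*, *WNT8B*, *WNT9B*, *WNT10A* and *WNT16*, *FZD9* and *FZD10*, *SFRP2*, *SFRP4* and *SFRP5*, *DKK2* and *DKK4*, *LGR5* and *RNF43*. The highest count was 44, for *WNT7B* in replicate 2 of miR-6133-5p, and no other of these genes had more than 14 counts in a library. A count of 0 allows up to 3 counts, which is 0.0302 to 0.0610 CPM depending on the library, for counting error only. This limit is for independent counts, and it is higher if the mates of a pair were counted apart. Of the 38 tested Wnt genes, 28 did not overlap between the groups, 73.7% against 64.4% of all tested genes, and 19 of these were lower with miR-6133-5p and 9 higher, beside 31.3% lower and 33.2% higher among all tested genes. An adjusted p below 0.01 with any fold change was found for 16 of them, 42.1% against 18.8% of all tested genes, 12 of them lower and 4 higher, beside 10.9% and 7.96% of all tested genes.

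A further list of 78 genes that are not among the members, made of genes of the pathway and of its canonical targets, held 63 tested genes. Of these, 9 fell, where 5.54% of all tested genes fell and 2.9% rose. None was called higher (0 by edgeR and 0 by DESeq2), and 9 of the 63 had a positive log2 fold change at an unadjusted p below 0.05, beside 20% of all tested genes. The median log2 fold change of the 63 was −0.21 against 0.03 over all tested genes. Without the 15 target genes, which are described again below, 5 of the 52 tested genes fell, and the median was −0.10. Among genes that act on the pathway, *DACT1*, a regulator that binds Dishevelled proteins, fell most, from 141 and 137 CPM to 49.7 and 54.3 CPM (log2 fold change −1.42, edgeR, adjusted p = 6.24e-07). *GSK3A*, which encodes a kinase that marks β-catenin for destruction, was at 56.4 and 49.97 CPM with miControl and at 21.5 and 20.8 CPM with miR-6133-5p (log2 fold change −1.33, adjusted p = 1.54e-06). *TLE1*, a corepressor that TCF/LEF factors recruit when β-catenin is absent, was at 137 and 125 CPM and at 58 and 57.1 CPM (log2 fold change −1.19, adjusted p = 2.63e-06). *DACT3*, at −0.90, and *TPBG*, at −0.87, also fell. *GSK3A* was among the predicted targets that the study picked from these libraries for being lower.

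The smaller changes among these genes, with an adjusted p below 0.01 in edgeR, numbered 8 lower and 1 higher. With the called genes, 17 of the 63 were lower at that adjusted p and 1 was higher, beside 10.9% and 7.96% of all tested genes. The smaller changes had log2 fold changes of −0.73 for *PYGO2*, the partner of BCL9 proteins, −0.69 for *FBXW11*, which helps to mark β-catenin for destruction, −0.65 for *TNKS2*, which lowers AXIN, −0.60 for *CTNND1*, with 39.1% of its exon bases shared with another gene on its strand, −0.57 for *CD44*, −0.54 for *CTNNBIP1*, −0.48 for *PRICKLE2*, −0.45 for *TLE4* and 0.48 for *TLE3*. Within the TLE corepressors, *TLE1* thus fell while *TLE3* lay at 17.8 and 16.1 CPM with miControl and at 22.8 and 24.6 CPM with miR-6133-5p. *GSK3B* (log2 fold change −0.07), *DVL1* (−0.05) and *DVL3* (−0.02) did not pass the test. Of the 12 genes of planar cell polarity, 0 were called by edgeR and 0 by DESeq2, and 6 had an unadjusted p below 0.05, beside 40.3% of all tested genes.

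Of the further list, 15 genes are known as targets of the canonical branch. Among these targets, 11 were tested and 4 fell, beside 5.54% of all tested genes. These 4 are part of the falls counted for the further list above. The median log2 fold change was −0.32 over the 11 and 0.03 over all tested genes. *TNFRSF19* was at 38.1 and 39.9 CPM with miControl and at 10.01 and 10.5 CPM with miR-6133-5p, and the change was −1.92 on the log2 scale (edgeR, adjusted p = 1.16e-07). *TBX3* was at 356 CPM in both miControl libraries and at 151 and 165 CPM with miR-6133-5p (log2 fold change −1.17, adjusted p = 2.86e-06). *SNAI2*, which encodes a transcription factor of the epithelial-to-mesenchymal transition, was at 133 and 129.8 CPM and at 63.2 and 54.6 CPM (log2 fold change −1.16, adjusted p = 4.81e-06), and *MYC* was at 164 and 156 CPM and at 91.9 and 86.4 CPM (log2 fold change −0.85, adjusted p = 4.23e-05). *TBX3* and *SNAI2* were also picked by the study from these libraries for being lower. *CD44* was lower short of the threshold of 0.8 (log2 fold change −0.57, edgeR, adjusted p = 0.000853). *CCND1* (−0.32, adjusted p = 0.0238), *JAG1* (−0.23), *FOSL1* (−0.26), *BIRC5* (0.08), *TWIST1* (0.10) and *BAMBI* (0.63, adjusted p = 0.0511) did not pass the test. *NKD1*, *NOTUM*, *SP5* and *MMP7* had too few counts to be tested. The highest count among them was 14, for *SP5* in replicate 2 of miR-6133-5p. *AXIN2* above, a target that is not on this list, did not pass either. The target genes thus did not all fall. These genes also answer to other pathways, and the part of Wnt signalling in their levels was not tested.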

How the data were processed

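The data were 4 RNA-seq libraries of LX-2 cells, 2 per group. Per the submitters' processing notes and the study's methods, the authors mapped paired reads (150 bases each) with STAR 2.5.3a to GRCh37, and featureCounts of Subread 1.6.4 is also named. They deposited whole-number counts per Ensembl gene without normalization, and a mapping summary with the fraction of input pairs that mapped uniquely, 0.965 to 0.968. Libraries were strand-specific per the labels, but the strand setting of the counting and the annotation release are not given in the sources used here. Library totals ran from 51862006 to 93811213 counts. Counting error is small for genes above 1 CPM, and floors cover counting error only.

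Genes were named and placed with GENCODE release 44 lifted to GRCh37, in which 55665 of 63677 identifiers were found, which may differ from the annotation behind the counts. After filterByExpr and TMM normalization, genes were tested with glmQLFit in edgeR 4.0.16 (R 4.3.3), 2-sided, with Benjamini-Hochberg adjustment over 18252 genes and the thresholds of the study's methods. A deposited count refers to a mate, so halved counts were an alternative added after seeing the data. No block was used, as the study's methods name none. In a check for pairing, the deviations of same-numbered libraries correlated at r = 0.066. With 2 libraries per group, both replicate numbers must give this same value. The other alternatives were RLE factors, library totals alone, DESeq2 1.42.0, no filter, at least 10 counts in every library, a replicate block, glmTreat, an adjusted p of 0.05, each library left out in turn, another gene length and longer or shorter matches in the 3′-UTR. Exact matches were searched in the 3′-UTR of 1 transcript per gene.

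The members were chosen by gene name, and they and the lists with earlier results of these data known. Values are given for every called member, every member with an adjusted p below 0.01, 11 core genes of the pathway and the called genes of the further list. The others that are named, such as *WNT11* or *TLE3*, were chosen after their values were seen. In simulated counts for this comparison, with 200 of 18252 genes changed, edgeR found 149 with 1 false call, and DESeq2 143 with 0. Of the 136 changed genes at 1 CPM or more, each found 135. The sizes of the changes given to these genes are not stated here. How many changes near the log2 fold change threshold of 0.8 would be found or missed was not tested. The study's own gene lists served only to mark members that it had picked from these libraries, and its RT-qPCR, protein and siRNA data were not used here.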

Additional observations from a re-analysis of the deposited data

How the results depend on the processing

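The same 11 Wnt genes were called with RLE factors, DESeq2, at least 10 counts in every library, an adjusted p of 0.05 and halved counts. With a replicate block, 10 Wnt genes were lower and 1 higher, again the same genes, although the libraries share only a number. Scaling by library totals alone moved the median log2 fold change of all genes from 0.03 to 0.19 and that of the Wnt genes from −0.13 to 0.03. Of all called genes, 42.1% were then lower, in place of 65.6%, with 977 higher in place of 529, *SFRP1* was no longer called (−0.71), and *LRP6* (0.0080), *LGR4* (0.11) and *PORCN* (0.078) changed sign. With glmTreat, which asks for a change significantly beyond 0.8, 5 Wnt genes were lower and 0 higher, 3 genes of the further list were lower, and 326 and 80 of all genes were lower and higher, and *DKK3*, *FZD1*, *SFRP1*, *WNT5A*, *WNT7A* and *WNT9A* were lost. Without the filter, *WNT7B* was added, which made 2 genes higher. Leaving out each library in turn gave 9 to 11 Wnt genes lower and 1 higher, 7 to 9 and 0 to 1 genes of the further list, and 831 to 1164 and 360 to 580 of all genes, and a group left with 1 library was assumed to vary like the other. The calls of *WNT7A* and *DKK1* changed as given above, and values that did not pass the test changed sign for *LGR4* (−0.18 to 0.052), *LRP6* (−0.38 to 0.037), *PORCN* (−0.25 to 0.059) and *TCF7* (−0.10 to 0.16). With the longest transcript as gene length, *TCF7L2* made up 26.4% with miControl and 51.9% with miR-6133-5p, *LEF1* 27.3% and *FZD2* 52.3% with miR-6133-5p, *WNT5A* 32.5% and 21.5%, and *WNT5B* 61.3% and 72.3%. CTCCCTC followed by A was found in 5 Wnt genes and its last 6 bases followed by A in 8, in place of 14. With the former, the median of the Wnt genes with a match (−0.18) lay below that of those without (−0.12). With the latter, the median of those with a match (0.13) lay above that of those without (−0.15). Depth limits the test below about 1 CPM, where *WNT11*, *WNT4* and *WNT10B* lie. Causes of these shifts were not tested.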
